A study of Bos taurus with 14 samples.

Results

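LPL, CD36 and ABCG2 were followed here as 3 genes of lipid uptake and of apical export in RNA from milk fat globules. Milk fat globules are the fat droplets that the secretory cell of the udder releases into milk, wrapped in its own apical membrane, and they carry some of that cell's cytoplasm and RNA. The genes were chosen by identifier, ENSBTAG00000012855 for LPL, ENSBTAG00000017866 for CD36 and ENSBTAG00000017704 for ABCG2, and all 3 of 3 were found among the 36075 genes of the deposited tables. The names come with that choice, because neither the tables nor the reference list gives symbols for these identifiers. Each gene was measured in 14 purebred Holstein cows of a single commercial herd under shared feeding and management, 7 homozygous for the A1 form (A1A1) and 7 for the A2 form (A2A2) of β-casein, a major milk protein. Each cow gave 1 library from frozen milk. The labels give no age, parity or stage of lactation, no treatment and no allele other than that of β-casein. The comparison asks whether the globule transcriptome differs between the 2 genotypes.

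LPL encodes lipoprotein lipase, the enzyme that frees fatty acids from the triglycerides of blood lipoproteins at the capillary wall. CD36 encodes a membrane glycoprotein that binds long-chain fatty acids and helps them into the cell, and its protein is also a known component of the milk fat globule membrane. ABCG2 encodes an ATP-driven exporter of the apical membrane that carries riboflavin, uric acid and many drugs into milk. It is known for these substrates rather than for fatty acids, so "fatty acid efflux" is not what its name stands for, and in cattle the gene is best known for its link with milk yield and composition. LPL and CD36 are also made by macrophages and adipocytes, and CD36 by capillary endothelium. Markers of these cells and of the secretory cell could not be looked up without gene symbols, so the cell source of the RNA was not checked. In such bulk RNA, fewer cells of a type and less RNA per cell cannot be told apart.

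Library totals ran from 16116849 to 22994197 counts, and LPL, CD36 and ABCG2 ranked 207, 234 and 160 by total count among the 21104 genes with a count. The lowest count of any of the 3 genes in any library was 588, so counting error was small beside the spread between cows. A1A1 9 stands apart from the other libraries. It had 51.8% of its counts in the 12 genes whose lengths match those of mitochondrial protein and rRNA genes (here called mitochondrial-length genes), against 5.12 to 33.0% in the other 13 libraries. Results that this cow moves are given with and without it. A suffix, _2, of unstated meaning marks the descriptions of 4 libraries, namely cows 10 and 15 of A1A1 and cows 5 and 13 of A2A2.

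Per unit of length, CD36 and ABCG2 stood at about the same level and LPL lay below both. The scale is FPKM, the library-scaled fragments per kilobase of gene that the authors deposited. Its library scaling was within 3.08% of that by library total and TMM factor, which is also used for the CPM below. CD36 had 199 ± 46.7 FPKM, ABCG2 200 ± 85.0 and LPL 90.1 ± 42.0 (SD, n = 14). LPL was below CD36 in every one of the 14 libraries, with a mean log2 ratio of -1.35 (SD 0.94) or a geometric mean ratio of 0.393 (exact sign-flip permutation p = 0.000122, the smallest that 14 pairs can give, adjusted p = 0.000366 over 3 pairs). Without A1A1 9 it was -1.11 (SD 0.36). ABCG2 was above LPL in 13 of 14 libraries, by a geometric mean of 2.27-fold (log2 1.18, SD 0.59, exact sign-flip permutation p = 0.000244, adjusted p = 0.000366). The order of ABCG2 and CD36 was not resolved: ABCG2 was the higher in 8 of 14 libraries, and the mean log2 ratio was -0.16 (SD 0.97, exact permutation adjusted p = 0.73). Without A1A1 9 that ratio was 0.07. In the CPM used below, which is not scaled by length, levels of different genes cannot be set side by side: the gene lengths implied by the deposited FPKM are 3575 bases for LPL, 2152 for ABCG2 and 1417 for CD36. The order of LPL and CD36 rests on these lengths, because by total count LPL ranked above CD36 (207 against 234). Each length is the same in every cow, so the sign-flip test cannot see an error in it.

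**Figure D1:**
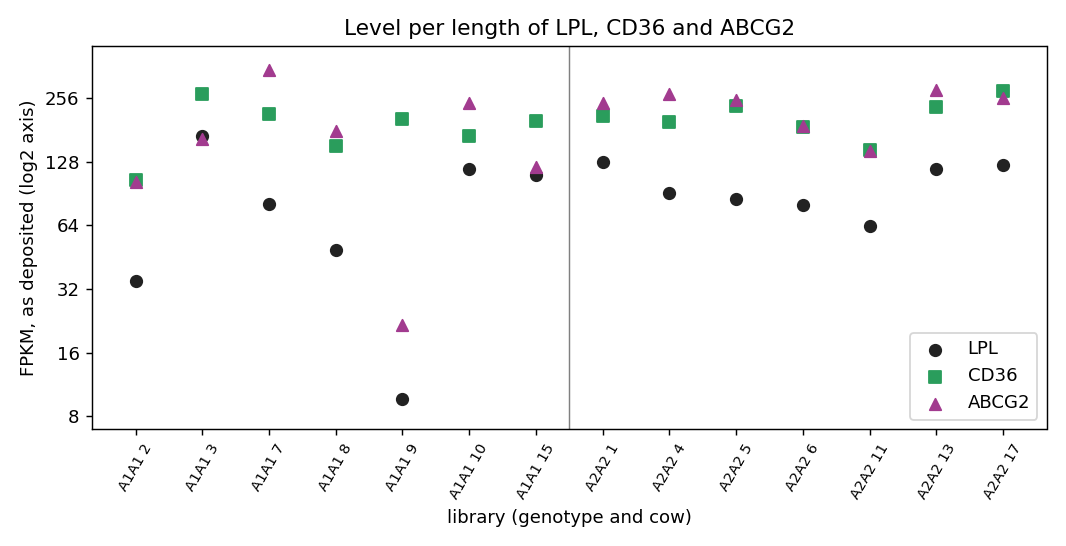
FPKM as deposited, on a log2 axis, of LPL (circles), CD36 (squares) and ABCG2 (triangles) in each of 14 libraries, with A1A1 cows left of the line and A2A2 cows right of it. LPL lies below CD36 in all 14, ABCG2 and CD36 lie close together in A2A2, and in A1A1 9 LPL (9.66) and ABCG2 (21.7) are far below CD36 (204).

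Placed among all genes of the same library by FPKM, CD36 ranked between 190 in A2A2 17 and 475 in A1A1 2. ABCG2 ranked between 169 in A1A1 7 and 483 in A1A1 2 in the 13 libraries other than A1A1 9, where it had rank 2170. LPL ranked between 314 in A1A1 3 and 1339 in A1A1 2, and it had rank 3944 in A1A1 9. All 3 genes were thus among the better represented transcripts of most globule libraries.

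No genotype difference was detected for LPL, the enzyme that acts on blood lipids. In CPM, counts scaled to a common library size with TMM factors, the A1A1 cows had 35.0 in A1A1 9 as the lowest value, a median of 288 and 617 in A1A1 3 as the highest. The A2A2 cows had 230 in A2A2 11, a median of 323 and 458 in A2A2 1. On this scale the A2A2 values all lay inside the A1A1 range, with 3 A1A1 cows (2, 8 and 9, at 129, 174 and 35.0 CPM) below every A2A2 cow. The upper end, A1A1 3, had the lowest TMM factor of all libraries (0.636, against 0.907 to 1.21 in the others). As a share of all counts its LPL was 0.0393%, below the 0.0457% of A1A1 10 and the 0.0475% of A2A2 13. By that share A2A2 13 lay above every A1A1 cow. The mean of the 7 A1A1 cows was 294 ± 200 CPM, and that of the 7 A2A2 cows was 351 ± 87.5 (SD). The mean log2 CPM was higher in A2A2 by 0.65 (standard error 0.544, 95% interval -0.44 to 1.84, exact permutation p = 0.283, adjusted p = 0.358 over 3 genes), and by 0.21 without A1A1 9. edgeR's quasi-likelihood test, which weighs counts rather than their logs, gave a log2 fold change of 0.25 with an adjusted p of 0.892 over all genes, and 0.06 without A1A1 9.

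CD36, the fatty acid translocase, was the steadiest of the 3 genes. A1A1 cows ran from 154 CPM in A1A1 2 over a median of 285 to 384 in A1A1 3. A2A2 cows ran from 207 in A2A2 11 over a median of 296 to 389 in A2A2 17. The groups overlapped almost fully, and only A1A1 2 lay below all A2A2 cows. The means were 267 ± 74.1 and 298 ± 57.9 CPM (SD, n = 7 each). The difference in mean log2 CPM was 0.19 (standard error 0.195, exact permutation p = 0.358). Its 95% interval, -0.23 to 0.62, leaves room for an A2A2 level of 0.855 to 1.54 times that of A1A1. The edgeR log2 fold change was 0.16 (adjusted p = 0.861), and 0.07 without A1A1 2.

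For ABCG2, the apical exporter, the difference passed neither test. It was larger than that of LPL over all 14 cows, but smaller without A1A1 3 (0.84 against 0.90 in mean log2 CPM) and in the 10 libraries without the suffix (0.84 against 0.98). A1A1 cows ran from 47.4 CPM in A1A1 9 over a median of 361 to 747 in A1A1 7, the highest value of all 14. A2A2 cows ran from 314 in A2A2 11 over a median of 537 to 596 in A2A2 13. 6 of 7 A2A2 cows lay above the A1A1 median, but the A2A2 range again fell inside that of A1A1. Means were 363 ± 223 and 499 ± 102 CPM (SD, n = 7 each). The mean log2 CPM was higher in A2A2 by 0.78 (standard error 0.496, 95% interval -0.15 to 1.85, or 0.902- to 3.60-fold, exact permutation p = 0.112, adjusted p = 0.336 over 3 genes). The difference was 0.35 without A1A1 9 and 1.01 without A1A1 7 (adjusted exact permutation p = 0.477 and 0.0542 over 3 genes). edgeR gave a log2 fold change of 0.46 (adjusted p = 0.856), which was 0.26 without A1A1 9.

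**Figure D2:**
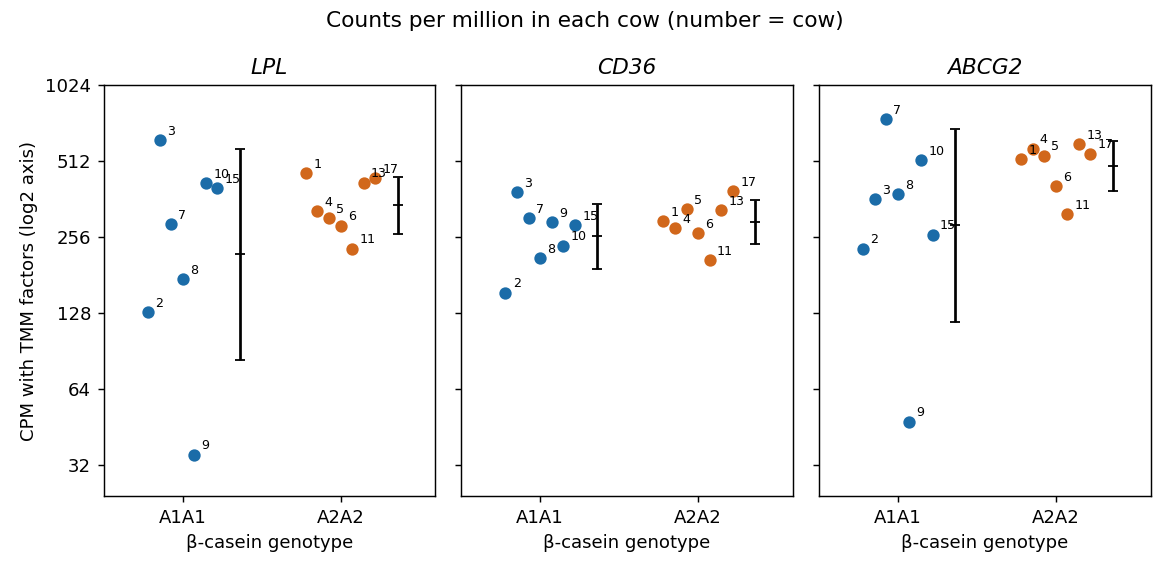
CPM with TMM factors, on a log2 axis, of LPL, CD36 and ABCG2 in 7 A1A1 (blue) and 7 A2A2 (orange) cows, each point labelled with the cow's number. The bars mark the mean and SD on the log2 scale. A1A1 9 has the lowest LPL (35.0) and ABCG2 (47.4) of all 14 cows but a CD36 of 293, and the genotypes overlap for every gene.

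The genotypes overlapped for each of the 3 genes, as they did for all but 0.0406% of the 12320 genes tested. Of the 3 genes, 0 passed an adjusted p of 0.05 in edgeR, where 0.0% of all genes passed (0 genes, against 9 in DESeq2 and 0 in limma voom). At an unadjusted p under 0.05 edgeR found 0 of the 3 and 3.34% of all genes. All 3 fold changes were above 0, as were those of 49.5% of all genes. The median log2 fold change of LPL, CD36 and ABCG2 was 0.25 and that of all genes tested -0.004. When library totals replaced TMM factors the median of all genes moved to 0.18, and the 3 genes moved with it, to 0.50, 0.38 and 0.62 (adjusted p = 0.673, 0.669 and 0.669 in edgeR). With library totals the differences in mean log2 CPM were 0.84, 0.39 and 0.98. Their adjusted exact permutation p over 3 genes was 0.113, 0.0839 and 0.0839.

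The spread between cows was wider in A1A1 than in A2A2 for LPL and ABCG2, and this was not tested. The SD of log2 CPM was 1.39 in A1A1 and 0.37 in A2A2 for LPL, and 1.27 and 0.33 for ABCG2. Without A1A1 9 the A1A1 values were 0.85 and 0.63. For CD36 the SDs were 0.43 and 0.29. Pooled within genotype, the SD was 1.02 for LPL, 0.93 for ABCG2 and 0.36 for CD36, and the SDs of 93.6%, 92.0% and 41.5% of the 5880 tested genes with a mean of at least 10 CPM were smaller. Without A1A1 9 the pooled SDs were 0.65, 0.50 and 0.38, and 87.6%, 74.2% and 51.5% of the genes had smaller ones.

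A ratio of 2 genes inside a library does not depend on how the library was scaled, and none of the 3 ratios differed detectably between the genotypes. LPL over CD36, both on the uptake side, ran from 0.326 to 0.699 in FPKM in 13 libraries and was 0.0474 in A1A1 9. The A2A2 minus A1A1 difference of its log2 was 0.46 (95% interval -0.39 to 1.56, exact permutation p = 0.524), and -0.01 without A1A1 9 (exact permutation p = 0.953). ABCG2 over CD36 lay between 0.923 and 1.36 in the 7 A2A2 cows. In A1A1 it ran from 0.107 in A1A1 9 and 0.604 in A1A1 15 to 1.62 in A1A1 7, and the log2 difference was 0.59 (95% interval -0.33 to 1.70, exact permutation p = 0.291), or 0.13 without A1A1 9. ABCG2 over LPL was 1.88 to 2.94 in A2A2 and 0.972 to 4.30 in A1A1, with a log2 difference of 0.13 (95% interval -0.56 to 0.85, exact permutation p = 0.685). The adjusted p over the 3 ratios was 0.685 for each. The A1A1 cows at the ends of this last ratio were A1A1 3, with the most LPL in CPM with TMM factors, and A1A1 7, with the most ABCG2.

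In A1A1 9, LPL and ABCG2 were both about 10 times lower than the median of the other cows while CD36 was not. LPL had 588 counts there (exact Poisson 95% interval 541 to 638, counting error only) or 35.0 CPM, 9.11-fold (-3.19 on the log2 scale) below the median of 323 CPM in the other 13 libraries. ABCG2 had 795 counts (741 to 852) or 47.4 CPM, against a median of 515, a log2 difference of -3.43. CD36 had 4915 counts or 293 CPM against a median of 285. Of 5880 genes with a mean of at least 10 CPM, 0.918% were at least as far below their median in this library as LPL and 0.595% as far as ABCG2. For 26.0% of these genes A1A1 9 had the lowest value of the 14 libraries. The next lowest value of both LPL and ABCG2 was that of A1A1 2, at 129 and 230 CPM.

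**Figure D3:**
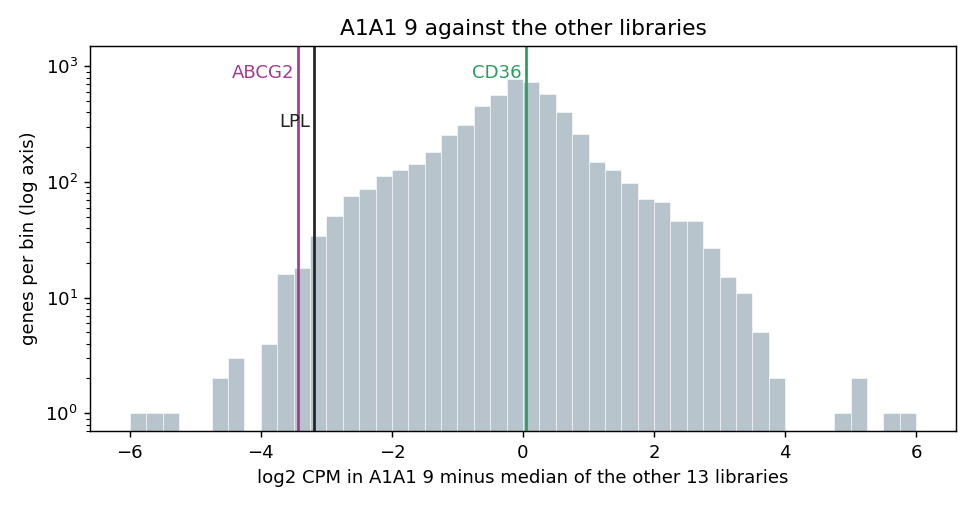
Number of genes, on a log axis, by log2 CPM in A1A1 9 minus the median of the other 13 libraries, in bins of 0.25, for 5880 genes with a mean of at least 10 CPM. ABCG2 (-3.43) and LPL (-3.19) lie in the lower tail, and CD36 (0.04) lies at the centre, near the median of all genes (-0.09).

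Across cows, the correlation of LPL and CD36 depended on whether A1A1 9 was included. Over 14 libraries Pearson's r of their log2 CPM was 0.42 (permutation p = 0.132, adjusted p = 0.197 over 3 pairs) and Spearman's rho was 0.65 (permutation p = 0.014, adjusted p = 0.0421). Without A1A1 9, left out after its value was seen, r was 0.85 (permutation p = 0.00024, adjusted p = 0.00072) and rho 0.75. Leaving out the 2 libraries farthest from the median of LPL, A1A1 2 and 9, gave r = 0.74 (adjusted permutation p = 0.0184) and rho = 0.68 (adjusted permutation p = 0.0555). Within A2A2 r was 0.78 (n = 7, exact permutation p = 0.0317, adjusted p = 0.0317 over 3 pairs). Within A1A1 it was 0.32 with all 7 cows (exact permutation p = 0.477). In the 6 A1A1 cows without A1A1 9 r was 0.88, which did not pass after adjustment (exact permutation p = 0.0208, adjusted p = 0.0625). The rank correlations passed in none of these sets: rho was 0.64 in A2A2, 0.43 in A1A1 and 0.77 in A1A1 without A1A1 9 (exact permutation p = 0.139, 0.354 and 0.103). The cows with the least of both genes, apart from A1A1 9 for LPL, were A1A1 2 and A1A1 8 in A1A1 and A2A2 11 in A2A2. In the 10 libraries without the suffix, A1A1 9 included, r was 0.44 and rho 0.71 (adjusted permutation p = 0.307 and 0.0801).

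Over all cows, the relation of LPL with ABCG2 did not hold without A1A1 9, although r passed among the 7 A2A2 cows. Over all 14 libraries r was 0.83 (permutation p = 0.0061, adjusted p = 0.0183) and rho 0.46 (permutation p = 0.0983). Without A1A1 9 r was 0.42 (permutation p = 0.154), and without A1A1 2 and 9 it was 0.10 (permutation p = 0.747). Leaving out A1A1 2 alone kept r at 0.83 with an adjusted permutation p of 0.086. For CD36 and ABCG2 r was 0.22 over 14 libraries (permutation p = 0.416) and rho 0.49 (permutation p = 0.0777), and r was 0.58 without A1A1 9 (permutation p = 0.0365, adjusted p = 0.0547). Without the 2 libraries farthest from the median of CD36, A1A1 2 and A2A2 11, it was 0.09. Among the 7 A2A2 cows alone, r was 0.78 for LPL with ABCG2 and 0.82 for CD36 with ABCG2 (exact permutation p = 0.0244 and 0.0185, adjusted p = 0.0317 for each of the 3 pairs), while the rank correlations there, 0.54 and 0.61, did not pass (exact permutation p = 0.236 and 0.167). Pairs of genes share the library and its scaling factor. In the 10 libraries without the suffix, r was 0.87 for LPL with ABCG2 and 0.20 for CD36 with ABCG2, and the 4 with it were too few for a value.

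**Figure D4:**
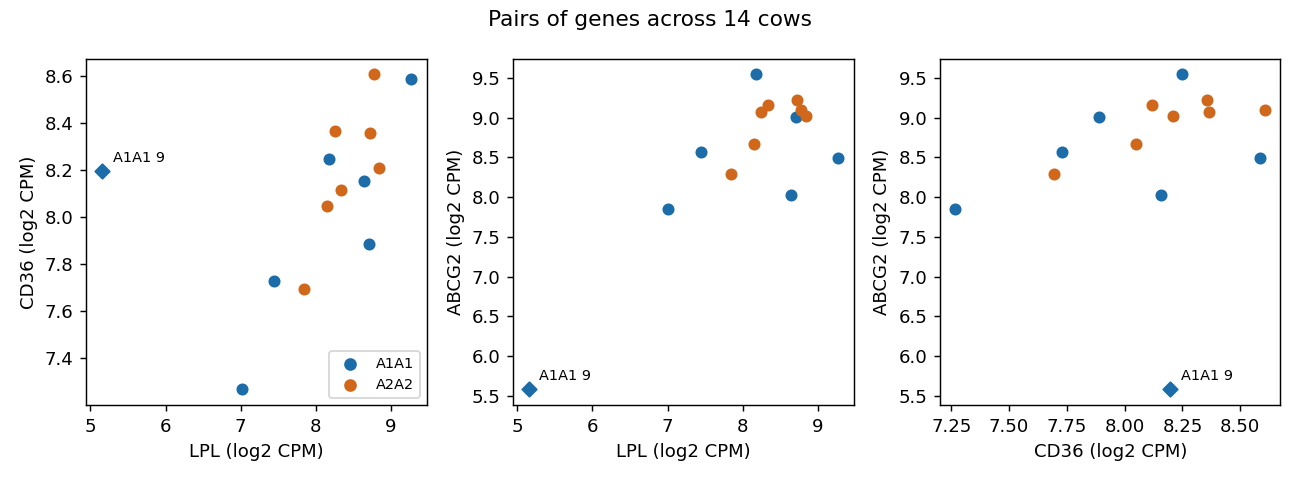
Log2 CPM of each pair of genes across 14 cows, A1A1 in blue and A2A2 in orange, with A1A1 9 as a diamond. CD36 and LPL lie along a line from which A1A1 9 departs (r = 0.42 with it and 0.85 without), whereas A1A1 9 extends the cloud of LPL and ABCG2 (r = 0.83 with it and 0.42 without).

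The gene whose log2 CPM was most like that of ABCG2 over the 14 libraries was ENSBTAG00000009602 (r = 0.978, rho = 0.969, n = 14, r = 0.912 without A1A1 9), which has rank 270 by counts. For LPL it was ENSBTAG00000055207, of rank 48 (r = 0.973, rho = 0.833, r = 0.921 without A1A1 9). CD36 had a closest r of 0.891. These are descriptions, the highest of 5879 values for each gene.

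LPL was correlated with the share of a library's counts that its few most abundant genes took. The share of counts in the 10 most abundant genes, lowest in A1A1 9 at 32.2%, had r = 0.82 with LPL over 14 libraries (permutation p = 2e-05, adjusted p = 0.00018 over 9 relations) and rho = 0.78 (permutation p = 0.00111, adjusted p = 0.00999). Without A1A1 15 and 9, the 2 libraries farthest from the median share, r was 0.81, and in the 10 libraries without the suffix it was 0.89. CD36 had r = 0.62 (permutation p = 0.0172, adjusted p = 0.0774) and rho = 0.63 with the same share, and r = 0.78 without A1A1 9 (adjusted permutation p = 0.00576). ABCG2 had r = 0.52 (permutation p = 0.0459, adjusted p = 0.138) and rho = 0.26, and r = 0.14 without A1A1 9. The r with the share, without its 2 farthest libraries, was 0.84 for CD36 and 0.41 for ABCG2. With the number of genes detected, r lay between -0.44 and -0.37 for the 3 genes, and with the TMM factor between -0.28 and 0.35, where no relation passed an adjusted permutation p of 0.05.

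The share of counts in the 12 mitochondrial-length genes was added as a further measure after the low values of A1A1 9 were seen. It had r = -0.85 with LPL (rho = -0.66, permutation p = 0.00177 and 0.0123), r = -0.83 with ABCG2 (rho = -0.67, permutation p = 0.00294 and 0.0108) and r = -0.39 with CD36 (rho = -0.60, permutation p = 0.163 and 0.0269). Adjusted over 12 relations the permutation p of r was 0.0106, 0.0118 and 0.217. Without A1A1 9 the values of r were -0.58 for LPL, -0.51 for ABCG2 and -0.71 for CD36 (permutation p = 0.0383, 0.0773 and 0.00617). Without A1A1 8 and 9, the 2 libraries farthest from the median share, they were -0.45, -0.55 and -0.70. In the 10 libraries without the suffix they were -0.94, -0.86 and -0.36. The share was not even between the genotypes. It ran from 12.4% (A1A1 3) to 51.8% (A1A1 9) in A1A1 and from 5.12% (A2A2 17) to 19.6% (A2A2 11) in A2A2. A1A1 2, 8, 9, 10 and 15 lay above every A2A2 cow, at 23.1% or more. These relations were not computed within a genotype, and the part of the share in the genotype differences was not tested. The CPM used here is a share of all counts divided by the TMM factor. A library with more counts in some genes has fewer for others. How far the TMM factor offsets this in the relations was not tested.

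**Figure D5:**
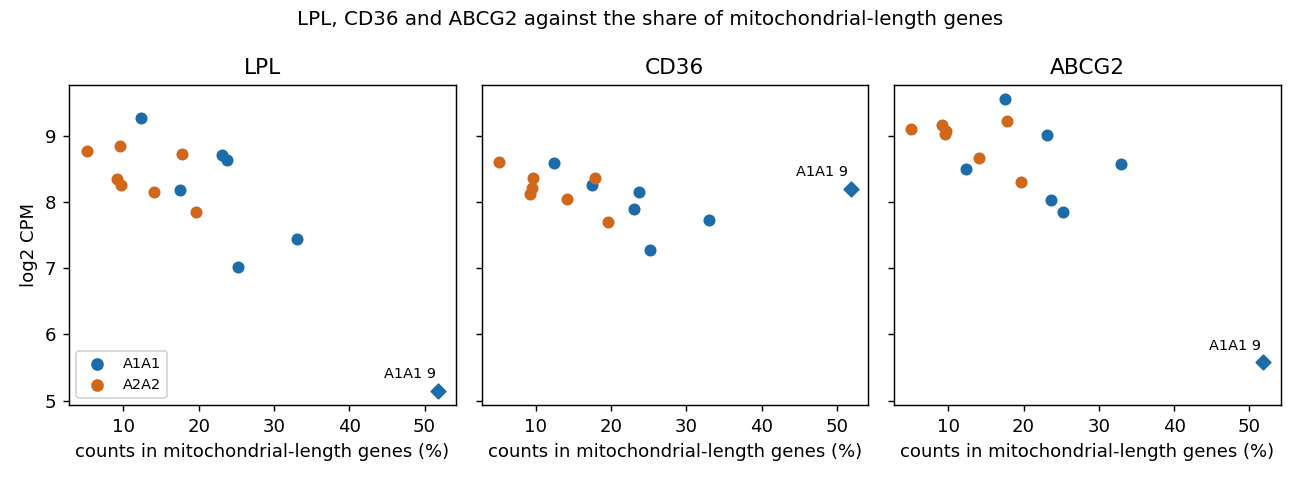
Log2 CPM of LPL, CD36 and ABCG2 against the percentage of counts in the 12 mitochondrial-length genes in 14 libraries, A1A1 in blue and A2A2 in orange, with A1A1 9 as a diamond at 51.8%. LPL and ABCG2 are lowest where the share is highest, and CD36 in A1A1 9 lies level with cows of low share.

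The unexplained suffix did not go with a detectable change in any of the 3 genes. The 4 libraries with it had 385 ± 54.8 CPM of LPL, 294 ± 43.9 of CD36 and 477 ± 148 of ABCG2, and the 10 without had 297 ± 172, 278 ± 74.6 and 412 ± 196 (SD, n = 4 and 10). The differences in mean log2 CPM were 0.68 for LPL (95% interval -0.57 to 2.01), 0.12 for CD36 (-0.37 to 0.62) and 0.40 for ABCG2 (-0.83 to 1.69), each with an adjusted exact permutation p of 0.601. edgeR called 0 of the 3 by the suffix, where it called 0.833% of 13323 genes, 111 in number and between 0 and 241 when 1 library was left out. Within the 10 libraries without the suffix, the genotype difference in mean log2 CPM was 0.98 for LPL, 0.13 for CD36 and 0.84 for ABCG2 (exact permutation p = 0.222, 0.714 and 0.254). Within the 4 with it, the differences were -0.19, 0.34 and 0.62, between 2 cows and 2 cows, where the smallest exact permutation p is 0.333.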

How the data were processed

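The deposited tables hold unnormalized counts and FPKM of 36075 Ensembl cattle genes, 1 column per cow, from paired-end mRNA libraries per the labels' protocols. FastQC 0.11.9, cutadapt 4.0, STAR and edgeR 4.0.16 are listed, with no role, in the submitters' processing notes. For the genome build, annotation, counting tool and strand setting nothing is stated in the sources used here. Implied gene lengths (counts over FPKM) were within 0.05 of whole numbers for all 21104 genes with a count.

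The reference table matched 0 of 36075 identifiers, so the planned lists of fatty acid uptake, ABC transporter, globule coat and regulator genes, and the cell markers, were not run, and no coordinates or sequences are given. The named genes were to be LPL, CD36, ABCG2, the listed genes and the gene most correlated with each of the 3 (at least 10 mean CPM, at most 2 unnamed identifiers). The 3 genes and the lists were chosen with earlier results of these data known.

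The test of the counts was edgeR's robust quasi-likelihood F test for A2A2 minus A1A1 (R 4.3.3, edgeR 4.0.16), after filterByExpr and with TMM factors. Its p-values were adjusted by Benjamini-Hochberg over 12320 genes and judged at 0.05. Log2 CPM uses a pseudocount of 0.5. Exact permutation tests used all 3432 splits into 7 and 7, 1001 into 4 and 10, or 16384 sign patterns, and intervals invert the test. Correlations used 100000 permutations (exact for 7 cows or fewer). All tests are two-sided. Each cow is 1 sample, and the tests were checked on simulated data. The alternatives were other scaling (RLE, library totals, TMM without 50 genes), filters and fits (DESeq2 1.42.0, limma 3.58.1, sva 3.50.0), FPKM, medians, the suffix and each library left out. The FPKM carries nearly the same library scaling as TMM, so it is not an alternative in scaling.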

Additional observations from a re-analysis of the deposited data

Results flagged for a closer look

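Within each genotype, 12 sets of 7 values (3 genes and 3 ratios) were searched on the log2 scale for a library far from the other 6 by Dixon's test, and 3 were found, all in A1A1 9. Chance finds about 1 in 20 sets, and these sets share genes. On the scale without logs 0 of 12 were found. The log2 CPM of ABCG2 in A1A1 9 was 5.58, and the other A1A1 cows had 7.85 to 9.55. The log2 FPKM ratio of LPL over CD36 was -4.40 in A1A1 9 and -1.62 to -0.52 in the others. The log2 ratio of ABCG2 over CD36 was -3.23, against -0.73 to 0.70. LPL itself, at 5.15, was not found by this test.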

How the results depend on the processing

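No paired analysis was possible because the 2 genotypes share no sample number. The edgeR count of 0 genes by genotype held in 12 of 14 settings and in every fit without 1 library (0 to 0), and it was 9 with DESeq2 and 1 with limma on log2(FPKM + 1). Over these settings the log2 fold change was 0.03 to 0.38 for CD36 and 0.18 to 0.79 for ABCG2. For LPL it was -0.07 to 0.66, below 0 only with 1 surrogate variable (-0.07). Leaving out 1 library gave 0.06 to 0.52 for LPL, 0.07 to 0.24 for CD36 and 0.26 to 0.74 for ABCG2. The genotype difference of ABCG2 over LPL was -0.14 without the suffix libraries. Leaving out 1 library gave -0.06 to 0.30 for it and -0.01 to 0.63 for LPL over CD36. The level of ABCG2 over CD36 was 0.06 as a median and -0.23 to 0.07 when leaving out 1 library. The number of genes by the suffix was 111, and 0 with library totals, 182 with genotype as covariate, 916 with DESeq2 and 0 to 241 without 1 library. For CD36 its difference then ran from -0.01 to 0.15. Leaving out 1 library gave r of 0.31 to 0.85 for LPL with CD36 and 0.42 to 0.89 for LPL with ABCG2. With the share of the 10 most abundant genes r was 0.55 to 0.78 for CD36 and 0.14 to 0.65 for ABCG2, and both passed without A1A1 15 (0.66 and 0.65). With the TMM factor r was -0.30 to 0.50 for LPL and -0.49 to 0.05 for CD36, the latter 0.31 with library totals. With the mitochondrial-length share r was -0.71 to -0.30 for CD36 and -0.88 to -0.51 for ABCG2. The causes were not tested. Levels over coding length were not run. With 7 cows a side, the intervals of LPL and ABCG2 include a level 2-fold higher in A2A2 but not one 2-fold lower.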

Other observations

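Without A1A1 9, LPL was the gene of place 34 among 5879 in its correlation with CD36, and CD36 was at place 26 in its correlation with LPL (r = 0.85). With all 14 libraries these places were 889 and 1778 (r = 0.42). For LPL with ABCG2 the order was the other way: ABCG2 was at place 186 among the correlations with LPL with all 14 libraries (r = 0.83) and at place 1116 without A1A1 9 (r = 0.42). The place was found by setting each gene against all tested genes of at least 10 mean CPM, and it is a description with no test.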
